A study of Mus musculus with 29 samples.

Results

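DNA methylation at CpG positions was compared between islets of young male mice fed a high-fat diet and islets of young male mice fed a standard diet, in windows of 1 kb of the mm10 genome. The mice were wild-type C57BL/6, a commonly used inbred strain. They were 8 weeks of age when the diets began, and the diets lasted 1 week. Fat gave 41% of kcal in the high-fat diet and 13.1% in the standard diet. Each diet had 4 libraries of genomic DNA, and the labels do not say whether a library came from 1 mouse or from several, so the p-values measure only the spread between these libraries. Islets are clusters of hormone-producing cells in the pancreas, most of them insulin-producing beta cells in the mouse.

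For each library, methylated calls and all calls were summed over both strands in fixed windows. A window was kept when each of the 8 young libraries had at least 20 calls in it. This kept 1070 windows, out of 825670 windows with at least 1 call in any of the 15 methylation libraries of the series. The young libraries held 594709 to 799617 calls over 410731 to 556009 listed cytosines, and 24.0 to 29.2% of those calls fell in the kept windows. The median was 132 calls per window and library. A read that spans several CpG positions gives a call at each of them, so the calls in a window are not independent molecules.

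The kept windows were not spread over the genome. The assay measured selected regions, and 967 of the 1070 windows lay in 29 runs of neighbouring windows on 15 chromosomes, here called the captured loci and named after their leading gene. Of these loci, 17 carry genes of G2 phase and mitosis, such as Cdk1, Ccnb1, Plk1, Top2a and Mki67. Another 2 carry the D-type cyclins Ccnd1 and Ccnd2, 3 carry Cdkn1a, Cdkn2c or H2afx, and 6 carry genes of metabolism, stress or signalling (Rgs2, Txnip, Mlxipl, Odc1, Bag3 and Il1b). The last and longest runs from below H19 through Igf2 to Ins2. The other 103 windows were scattered singly or in short runs over satellite repeats, a stretch annotated with ribosomal RNA genes, replication-dependent histone genes and other places.

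Most CpG positions of a mammalian genome carry a methyl group on the cytosine. Starts of genes that are rich in CpG are the usual exception and are mostly free of it. A methylated start goes with silence of the gene in many settings, whereas methylation inside a gene is common in transcribed genes. Beta cells divide seldom in adult mice, and division needs cyclins with their kinases, the machinery of the spindle, and a release from inhibitors such as p21, which Cdkn1a encodes.

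The 6 gene starts printed here show kinds of sequence near which levels were measured. They are RefSeq promoters (build GRCm38.p6, 300 bases that end a short way into the gene), printed 5′ to 3′ on the gene's strand, and capitals mark each CpG. Rgs2 encodes a regulator of G-protein signalling, Mki67 the proliferation marker Ki-67, and Cdk1 the kinase whose activity starts mitosis. The 2 starts of Cdkn1a and the start of Ins1, which encodes 1 of the insulins of the mouse, are set beside them because their levels or their CpG content differ. The 300 bases printed for Ins1 hold 0 CpG, so the calls of its window come from other bases.
Rgs2 (chr1:144004100-144004399, minus strand, 33 CpG): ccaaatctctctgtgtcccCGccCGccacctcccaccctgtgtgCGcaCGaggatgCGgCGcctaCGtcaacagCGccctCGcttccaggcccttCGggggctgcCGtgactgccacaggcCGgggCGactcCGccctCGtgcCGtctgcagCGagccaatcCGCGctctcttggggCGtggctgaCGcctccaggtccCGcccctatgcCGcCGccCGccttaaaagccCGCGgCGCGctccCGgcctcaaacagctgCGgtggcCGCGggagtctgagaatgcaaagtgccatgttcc
Mki67 (chr7:135716330-135716629, minus strand, 32 CpG): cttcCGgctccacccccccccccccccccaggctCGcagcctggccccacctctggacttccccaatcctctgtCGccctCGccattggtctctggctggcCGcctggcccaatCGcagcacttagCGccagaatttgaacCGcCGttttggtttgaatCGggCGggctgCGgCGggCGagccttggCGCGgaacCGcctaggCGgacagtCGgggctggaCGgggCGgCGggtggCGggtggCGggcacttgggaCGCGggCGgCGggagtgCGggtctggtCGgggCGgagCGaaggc
Cdk1 (chr10:69352863-69353162, minus strand, 24 CpG): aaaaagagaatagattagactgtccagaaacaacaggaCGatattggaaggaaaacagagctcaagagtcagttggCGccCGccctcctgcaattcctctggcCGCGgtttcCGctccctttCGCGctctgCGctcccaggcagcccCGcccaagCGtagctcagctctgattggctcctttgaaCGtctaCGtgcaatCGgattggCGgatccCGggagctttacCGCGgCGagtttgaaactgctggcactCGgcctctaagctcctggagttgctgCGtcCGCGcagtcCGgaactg
Cdkn1a, upstream start (chr17:29090729-29091028, plus strand, 2 CpG): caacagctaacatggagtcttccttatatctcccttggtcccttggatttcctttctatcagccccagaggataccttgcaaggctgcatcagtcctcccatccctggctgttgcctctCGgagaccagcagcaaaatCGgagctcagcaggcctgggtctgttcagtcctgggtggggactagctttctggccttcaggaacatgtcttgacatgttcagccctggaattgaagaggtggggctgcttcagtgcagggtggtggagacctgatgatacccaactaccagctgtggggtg
Cdkn1a, downstream start (chr17:29093519-29093818, plus strand, 23 CpG): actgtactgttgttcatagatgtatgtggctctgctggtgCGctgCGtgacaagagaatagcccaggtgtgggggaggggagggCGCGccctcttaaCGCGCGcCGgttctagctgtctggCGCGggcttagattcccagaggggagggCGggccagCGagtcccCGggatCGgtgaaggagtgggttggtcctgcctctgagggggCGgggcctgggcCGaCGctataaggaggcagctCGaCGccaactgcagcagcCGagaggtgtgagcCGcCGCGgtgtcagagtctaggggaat
Ins1 (chr19:52264047-52264346, plus strand, 0 CpG): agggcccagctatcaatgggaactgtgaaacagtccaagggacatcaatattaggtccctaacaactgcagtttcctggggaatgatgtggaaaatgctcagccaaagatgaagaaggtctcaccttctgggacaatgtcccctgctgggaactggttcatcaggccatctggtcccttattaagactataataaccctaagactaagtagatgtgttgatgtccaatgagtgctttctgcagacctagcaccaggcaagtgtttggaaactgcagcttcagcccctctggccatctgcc

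The windows of the Mki67 and Rgs2 starts were almost free of methylation on either diet. The window that holds the start of Mki67 was 0.629% ± 0.410 methylated on the standard diet and 0.435% ± 0.175 on the high-fat diet (SD, n = 4 in each). That of Rgs2 was at 0.760% ± 0.163 and 0.763% ± 0.415. The window of the Cdk1 start was higher, at 14.5% ± 4.38 on the standard diet and 10.8% ± 2.93 on the high-fat diet. Its libraries overlapped, at 11.4, 13.9, 20.9 and 11.9% on the standard diet and at 12.6, 9.66, 7.16 and 13.6% on the high-fat diet. At Cdkn1a the start with 2 CpG lay in a window at 74.6% ± 3.1 and 73.0% ± 1.57, and the start with 23 CpG in a window at 14.5% ± 4.75 and 18.4% ± 1.52. The lowest window within Cdkn1a stood at 0.354% over the 8 libraries.

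No window was called between the diets. Each window was fitted with a quasi-binomial model of its methylated calls out of all calls, with an F test and Benjamini-Hochberg adjustment over all windows, and 0 of 1070 windows (0.00%) had an adjusted p under 0.05. At an unadjusted p under 0.05 there were 55 windows (5.14%). The same calls tested with edgeR gave 0 windows after adjustment and 53 before it (4.95%), and limma on log2 ratios gave 0 and 49 (4.58%). The smallest adjusted p of the quasi-binomial model was 0.132. Without high-fat replicate 3, 1 window passed (chr6:124828001-124829000, 8.66 points higher on the high-fat diet, adjusted p = 0.0432 in the model with limma-moderated dispersions). It lies inside Usp5 in the Cdca3 locus, next to the window that holds the Usp5 start.

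The windows lay close to equality in both directions. The high-fat mean was the higher in 548 windows and the lower in 522. The diets differed by at most 5 percentage points in 87.4% of the windows and by more than 10 points in 14, of which 9 lay outside the captured loci. A single window differed by more than 20 points. The median standard error of a window's difference was 2.69 points, and the median SD between libraries of 1 diet was 3.48 points on the standard and 3.5 points on the high-fat diet. The median standard error was smaller in windows under 20% methylated, 0.994 points, and larger in windows of 20 to 80%, 3.74 points.

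**Figure D1:**
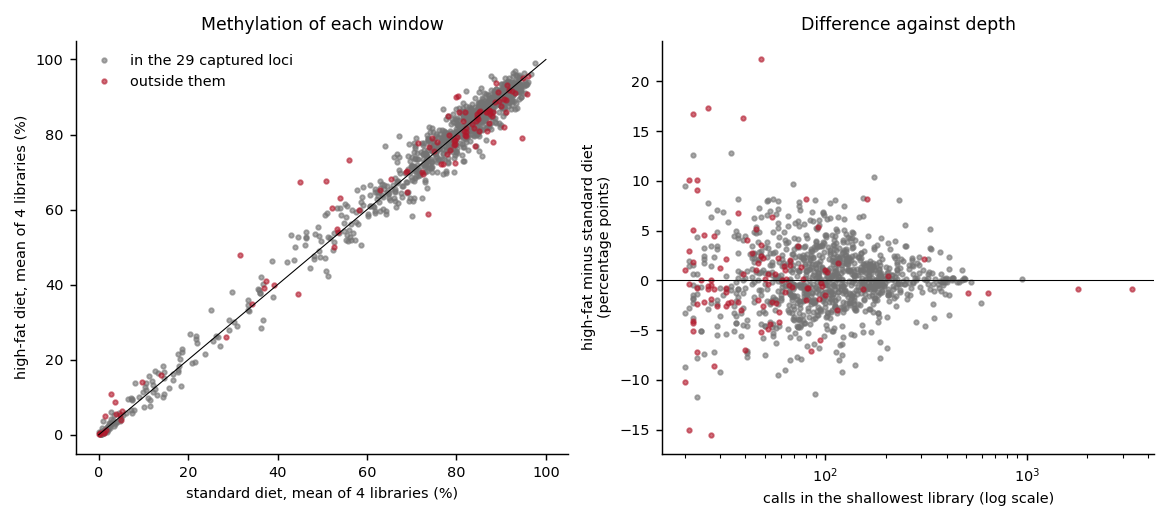
Left: each point is 1 window of 1 kb, with its mean methylation over 4 standard-diet libraries (x axis, %) and 4 high-fat libraries (y axis, %), and the line marks equality. Right: the difference (high-fat minus standard diet, percentage points) against the number of calls in the window's shallowest library (log scale). The largest differences, up to 22.2 points higher and 15.5 points lower, belong to windows with few calls. The drop of 15.5 points rests on 1 high-fat library at 37.04%, with the others at 93.02 to 93.62%.

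In 32 windows (2.99%) the 4 libraries of one diet lay wholly above the 4 of the other. The high-fat libraries were above in 18 windows (1.68%) and below in 14 (1.31%). The 14 include the window with the largest drop, 15.5 points (chr8:121974001-121975000). There 1 high-fat library stood at 37.04%, the others at 93.02 to 93.62%, and the standard-diet libraries at 94.44 to 95.35%. Of the 32 windows, 27 lay in the captured loci (2.79% of the windows there) and 5 outside them (4.85%).

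Averaged over all windows with equal weight, methylation was 70.35% ± 0.252 on the standard diet and 70.53% ± 0.324 on the high-fat diet (SD, n = 4 in each). The standard-diet libraries stood at 70.11, 70.16, 70.53 and 70.60%, and the high-fat libraries at 70.20, 70.67, 70.92 and 70.34%. The ranges overlapped, and the difference was 0.18 points with an exact 97.1% interval of -0.40 to 0.81 (exact two-sided permutation test, p = 0.429, adjusted over 10 classes 0.714). The interval is the set of shifts that this test does not reject. Leaving out 1 library at a time moved the difference between 0.0489 points (without high-fat replicate 3) and 0.294 points (without high-fat replicate 1). Pooling calls over the windows gave 0.445 points, and 0.899 points in the captured loci alone, which lies above the interval of -0.40 to 0.81. With 4 libraries against 4 there are 70 assignments, and the smallest p is 0.0286. A single class at that p would stay above 0.05 after adjustment over 10 classes, so 1 class alone could not pass.

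Levels differed far more between positions than between diets. A gene-start window overlaps the 500 bp on either side of a gene start, and 161 windows did. They averaged 38.71% ± 0.094 on the standard diet and 39.15% ± 0.568 on the high-fat diet, a difference of 0.437 points (-0.37 to 1.17). With calls pooled over the windows instead of equal weight per window, the difference turned to -2.16 points, and in the captured loci alone it was 0.676 points when pooled. The 561 other windows that overlap a gene averaged 77.09% and 77.28%, a difference of 0.193 points (-0.67 to 1.25). The 348 intergenic windows averaged 74.13% and 74.17%, a difference of 0.041 points (-0.61 to 0.62). None of the 3 passed the exact permutation test, with adjusted p-values of 0.571, 0.714 and 0.857.

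Gene-start windows were of mixed kinds, 49.7% of them under 20% methylated, 26.1% between 20 and 80%, and 24.2% above 80%. Windows inside genes were mostly above 80% (65.2%), and intergenic windows mostly of 20 to 80% (55.2%). Of the 402 windows of 20 to 80%, the locus from below H19 to Ins2 alone held 98, many of them intergenic. A level class here rests on the mean over the 8 libraries, which does not use the diet.

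The 115 windows under 20% averaged 5.80% ± 0.088 on the standard diet and 6.15% ± 0.318 on the high-fat diet. The standard-diet libraries lay between 5.67 and 5.87% and the high-fat libraries between 5.81 and 6.57%, so the ranges overlapped in their ends, and the exact permutation p was 0.114 (adjusted 0.571). The 402 windows of 20 to 80% averaged 65.54% and 65.96% (difference 0.423, -0.71 to 1.46). The 553 windows above 80% averaged 87.27% and 87.24% (difference -0.032, -0.88 to 0.64). By number of listed cytosines, windows with 60 or more (99 windows) averaged 13.93% and 14.42%, those with 20 to 59 (558) averaged 73.83% and 73.99%, and those with fewer than 20 (413) averaged 79.18% and 79.31%. None of these classes passed the test, which a single class could not pass after adjustment. The lowest adjusted p among all 10 classes was 0.571.

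**Figure D2:**
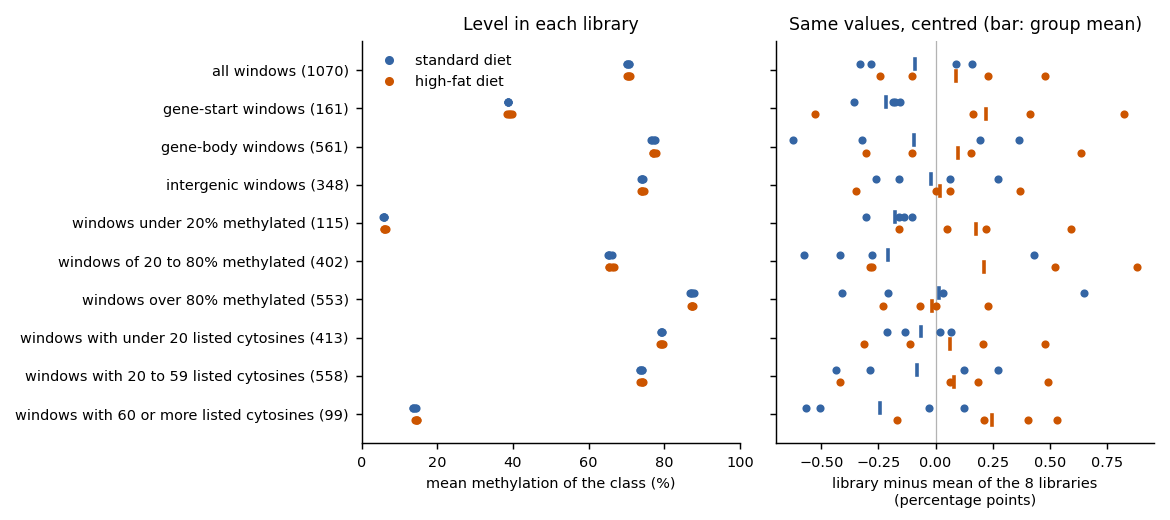
Mean methylation of each window class (rows, with the number of windows) in each of the 8 libraries. Left: the level (%); right: the same values minus the mean of the 8 libraries (percentage points), with a bar at each diet's mean. The diets lie on top of each other on the scale of levels, and in every class the libraries of the diets overlap.

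The 17 loci of G2 phase and mitosis held 586 windows and averaged 75.26% ± 0.279 on the standard diet and 75.42% ± 0.284 on the high-fat diet. The difference was 0.159 points, with an exact interval of -0.43 to 0.81. The high-fat mean was the higher in 11 of these loci and the lower in 6, from a difference of -1.01 points at Ccna2, which encodes cyclin A2, to 0.812 at Ccnb2, which encodes cyclin B2. Of the 586 windows, 2.56% had libraries that did not overlap, against 2.99% of all windows.

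The Cdk1 locus (chr10:69320001-69370000, 50 windows) was the 1 locus of 29 whose libraries did not overlap between the diets. The standard-diet libraries stood at 75.42, 75.96, 75.86 and 75.85%. The high-fat libraries stood at 76.13, 76.58, 76.22 and 76.69%. All 4 high-fat libraries were thus above all 4 standard-diet libraries, by 0.636 points in the mean (0.18 to 1.26). The exact permutation p was the smallest possible, 0.0286, and 0.83 after adjustment over the 29 loci. Within the locus 29 windows were higher and 21 lower on the high-fat diet. The windows at the start of Cdk1 itself went the other way, at 13.8% ± 3.12 on the standard diet and 12.3% ± 3.16 on the high-fat diet, with overlapping libraries. In old islets, over 48 of the 50 windows, the same locus stood at 76.50% ± 1.00 on the standard diet (SD, n = 4). On the high-fat diet of the old it stood at 77.20% ± 0.825 (n = 3), a difference of 0.696 points, smaller than either SD. At the loci with the largest young differences in either direction, H2afx (1.78) and Ccna2 (-1.01), the old differences were 0.0809 and 0.831 points.

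At Mki67 (34 windows) the locus stood at 82.80% ± 0.513 and 83.19% ± 0.457. The 26 windows that overlap the gene itself ranged from 0.532% at the start to 94.9% inside the gene, and averaged 83.5% and 83.3%. No window of the gene had separate libraries, and the lowest adjusted p among them was 0.822. At Ccnb1, which encodes cyclin B1 and whose locus is the longest of this group with 68 windows, the means were 74.96% ± 0.358 and 75.02% ± 0.939.

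The locus of Ccnd1 averaged 39.16% ± 0.901 and 39.92% ± 0.794, and that of Ccnd2 59.89% ± 1.15 and 60.35% ± 1.12. D-type cyclins open the way from G1 into S phase, and Ccnd2 is the main one of mouse beta cells. Both loci held long unmethylated stretches, with 7 of the 17 windows at Ccnd1 and 8 of the 38 at Ccnd2 under 20%. The windows at the start of Ccnd2 stood at 1.63, 0.821, 1.37 and 1.24% on the standard diet and at 0.416, 0.823, 0.716 and 0.767% on the high-fat diet. The highest high-fat value exceeded the lowest standard-diet value by a narrow margin, the difference was -0.586 points, and the lowest p of these windows was 0.179 before adjustment.

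The 3 loci of Cdkn1a, Cdkn2c and H2afx averaged 59.93% ± 1.03 and 61.05% ± 0.648 over 47 windows. Cdkn2c encodes p18, an inhibitor of cyclin D kinases, and H2afx the histone variant that is phosphorylated at DNA breaks. All 3 had the higher mean on the high-fat diet, by 1.15, 0.398 and 1.78 points, and each interval included 0. Of the 47 windows, 4 (8.51%) had libraries that did not overlap, against 2.99% of all windows, and this share was not tested. H2afx had the largest difference of the 29 loci. Its standard-diet libraries were at 49.8 to 50.8% and its high-fat libraries at 50.4 to 52.9%, with 1 high-fat library inside the standard-diet range (exact permutation p = 0.0857, adjusted 0.83).

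The 6 loci of metabolism, stress and signalling averaged 64.89% ± 0.329 and 65.08% ± 0.665 over 129 windows. Txnip encodes an inhibitor of thioredoxin that responds to glucose, and its locus had the lowest level of all, 36.91% ± 0.857 and 36.48% ± 0.611. Mlxipl encodes ChREBP, a transcription factor that responds to glucose, and its locus stood at 62.99% and 63.14%. At the Il1b locus, which encodes interleukin 1 beta, no window was under 63.1%, and the means were 79.6% ± 1.16 and 80.03% ± 1.53. No locus of this group had separate libraries.

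**Figure D3:**
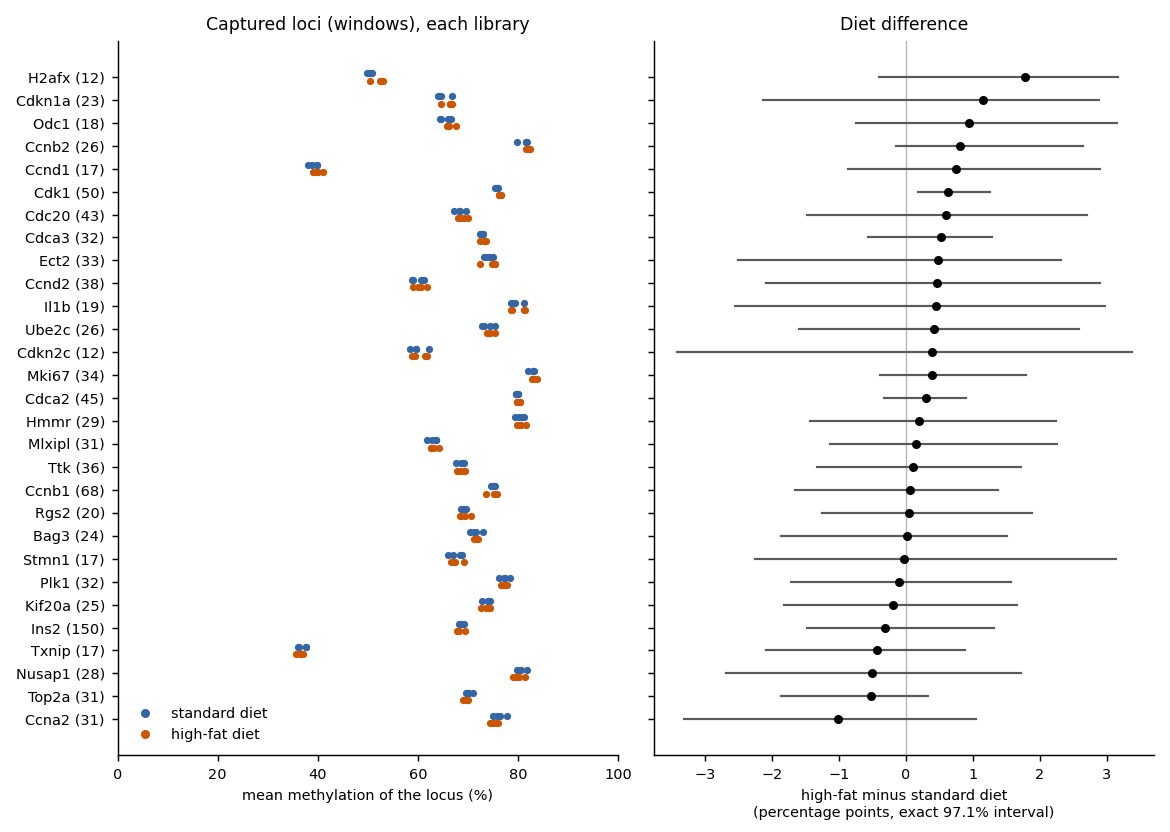
The 29 captured loci (rows, with the number of windows), ordered by the diet difference. Left: mean methylation of the locus in each of the 8 libraries (%); right: high-fat minus standard diet (percentage points; point, difference of the means; line, exact 97.1% interval). The differences run from -1.01 at Ccna2 to 1.78 at H2afx, and the interval excludes 0 at Cdk1 alone.

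Over all 29 loci, 21 had the higher mean on the high-fat diet and 8 the lower. The loci share libraries, so they are not independent points. The mean over the 967 windows in the loci was 70.87% ± 0.263 and 71.03% ± 0.373, a difference of 0.159 points (-0.48 to 0.81).

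The starts of 51 genes lay in the loci, each measured over the windows that touch the 500 bp on either side of the start. Some neighbouring genes share windows, so the 51 are not independent measurements. Kif20a and Brd8, Nusap1 and Oip5, Cdca2 and Kctd9, and Ect2 and 1700125G22Rik have the same windows and values. Hmmr and Nudcd2, and Usp5 and Cdca3, share part of theirs. Of these, 43 were under 20% methylated on the standard diet. Those above 50% included Igf2 (86.8%), Tnnc2 (84.1%), Il1b (83.6%), Cdkn1a at its upstream start (72.2%), H19 (55.3%) and Gnb3 (53.4%). RefSeq promoters could be matched for 34 of the 51. The 30 of them at starts under 20% held 10 to 42 CpG with a median of 22.5, and the 4 at starts above 50% held 2 to 5.

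The promoters of the G2 and mitosis genes also share letters known from cell cycle promoters. CCAAT, the motif of the factor NF-Y, occurred on either strand in 12 of the 13 matched promoters of genes that lead such a locus, against 37.4% of all 32851 promoters in the RefSeq table. TTTGAA, a form of the cell cycle homology region, occurred in 11 of the 13, against 17.9%. TTTAAA, its other common form, occurred in 2 of the 13, against 13.2%. No motif of the 3 contains another, TTTAAA reads the same on both strands, and a match says only that these letters stand in the 300 bases.

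RNA of the same kinds of islets offers a comparison, in libraries whose DNA partners the labels do not name. In the authors' deposited table for young islets, 22 of the 51 genes had higher RNA on the high-fat diet at an adjusted p under 0.05 (background 2.33% of 15651 genes with an adjusted p), and 0 had lower RNA (background 1.62%). How the regions were selected is not given in the sources used here, so the RNA direction among them is not independent evidence. In bulk RNA, more cells of a type and more RNA per cell cannot be told apart. The methylation of these 22 starts was a median of 5.17% on the standard diet. It was higher on the high-fat diet at 15 starts and lower at 7, with a median difference of 0.247 points, against 0.205 over all 51. At 0 of the 51 starts were the libraries of the diets separate (background 2.99% of windows).

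Rgs2 had the largest rise in RNA of the 22. The authors' deposited table gives a log2 fold change of 1.18 ± 0.112 (SE, adjusted p = 4.48e-22, DESeq2). The counts gave 140, 228 and 191 CPM on the standard diet and 443, 497 and 520 CPM on the high-fat diet, with no overlap. Methylation over the 2 windows at the Rgs2 start was 1.60, 2.28, 1.56 and 2.098% on the standard diet and 1.85, 0.824, 1.33 and 2.19% on the high-fat diet. The libraries overlapped, and the difference was -0.338 points (-1.45 to 0.62).

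Hmmr encodes a spindle-associated protein. In the authors' deposited table its log2 fold change was 0.934 ± 0.133 (SE, adjusted p = 2.41e-09, DESeq2). Methylation at its start was 10.1% ± 3.62 and 12.4% ± 0.858. Cdk1 RNA had a log2 fold change of 0.826 ± 0.138 in the authors' deposited table (adjusted p = 1.01e-06, DESeq2), beside the start levels of 13.8% and 12.3% given above. For Mki67 the authors' deposited table gives 0.659 ± 0.136 (adjusted p = 0.000202, DESeq2). Methylation over the 2 windows at its start was 2.91% ± 0.601 and 3.56% ± 0.724. The window that holds the start itself, given above, was at 0.629% and 0.435%, so the direction differed between these measures. Cdkn1a RNA had a log2 fold change of 0.637 ± 0.108 in the authors' deposited table (adjusted p = 1.62e-06, DESeq2), while the upstream start was at 72.2% ± 5.0 and 70.1% ± 1.88.

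Of the 29 genes without a called RNA difference, 22 had starts under 20% methylated, beside 21 of the 22 with one. These sets share data, since Kif20a, Nusap1, Cdca2 and Ect2 are among the 22. Their partners with the same windows, Brd8, Oip5, Kctd9 and 1700125G22Rik, are among the 29. Txnip was at 0.408% ± 0.113 and 0.613% ± 0.332, Ccnd1 at 1.68% and 1.37%, and Odc1, which encodes the first enzyme of polyamine synthesis, at 1.81% and 2.01%. Among the starts with a low unadjusted p was Elovl4, a gene of fatty acid elongation in the Ttk locus, where methylation was 9.16, 8.46, 6.93 and 10.3% on the standard diet and 5.68, 5.49, 7.09 and 6.06% on the high-fat diet. The libraries overlapped in 1 value of each diet, and the lowest p among the windows of this start was 0.0160 before adjustment.

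**Figure D4:**
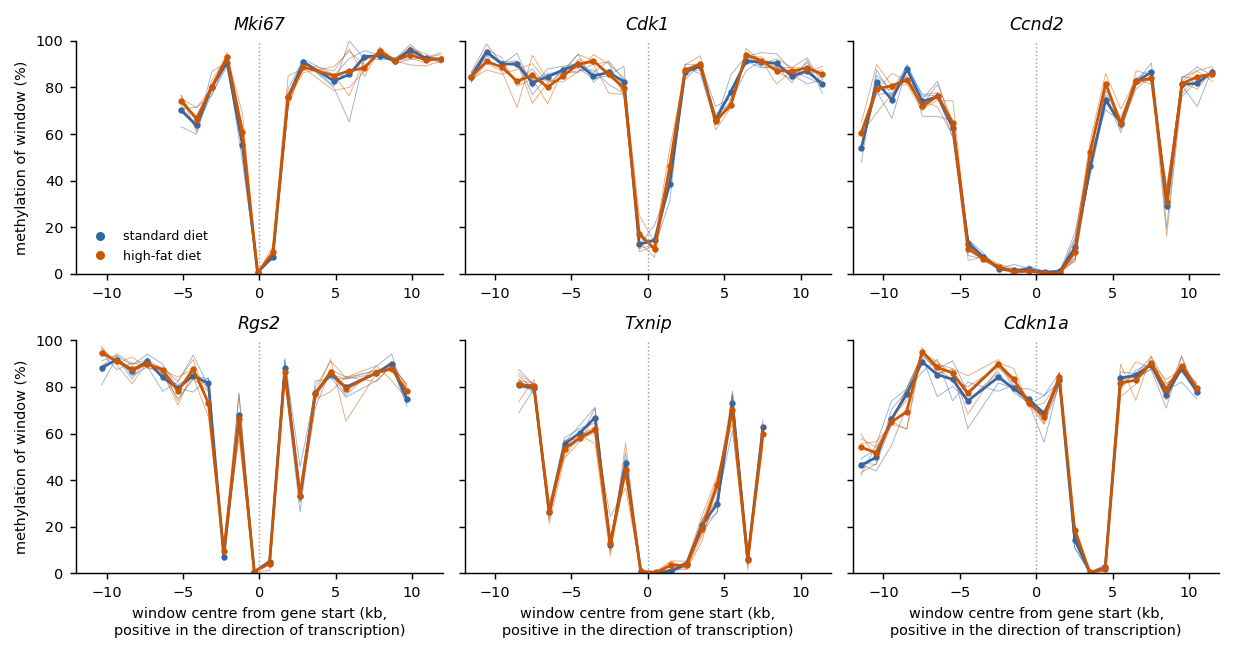
Methylation of windows (y axis, %) against the distance of the window's centre from the gene start (x axis, kb, positive in the direction of transcription) for 6 genes; thin lines are libraries and thick lines with points are the diet means (n = 4). Methylation falls to under 20% around the starts of Mki67, Cdk1, Ccnd2, Rgs2 and Txnip and downstream of the upstream start of Cdkn1a, at the same place on either diet.

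The windows with the smallest p values are named here as a description, since none passed. The largest difference was in a window inside Dlgap1 (chr17:70392001-70393000), which encodes a scaffold protein of synapses, with 25 listed cytosines and at least 48 calls per library. It stood at 52.9, 44.8, 35.2 and 47.4% on the standard diet and at 73.6, 64.6, 66.7 and 64.3% on the high-fat diet. Every high-fat library was above every standard-diet library, and the means were 45.1% ± 7.42 and 67.3% ± 4.36 (unadjusted p = 0.000123, adjusted 0.132). In old islets the same window was at 72.4% on the standard diet and 54.2% on the high-fat diet. This window lies outside the captured loci.

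Within the loci, an intergenic window of the Cdk1 locus (chr10:69321001-69322000) stood at 1.5, 2.8, 4.2 and 2.3% on the standard diet and at 6.4, 4.9, 7.5 and 5.9% on the high-fat diet, again without overlap (unadjusted p = 0.00198, adjusted 0.528). An intergenic window of the Ccnb1 locus (chr13:100791001-100792000) went down, from 85.7% ± 3.99 to 74.3% ± 3.58 (unadjusted p = 0.00155, adjusted 0.528). A window inside Txnip (chr3:96559001-96560000) was at 1.04% ± 0.553 and 3.62% ± 1.98. A window inside Cdca2 (chr14:67692001-67693000), which encodes a chromosome-bound partner of protein phosphatase 1, was at 71.0% ± 3.06 and 79.0% ± 5.53.

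The other low-p windows with a lower high-fat mean were an intergenic window of the Rgs2 locus (81.5% ± 2.76 to 73.0% ± 4.75), windows inside Bbs7 (93.6% to 87.0%) and Exosc9 (90.9% to 85.7%) in the Ccna2 locus, an intergenic window of the Top2a locus (89.6% to 83.1%) and the start window of Elovl4 (14.3% to 10.2%). Each had an adjusted p of 0.822. The window of Gm9115 on chromosome X (56.0% ± 7.06 to 73.3% ± 13.1), with at least 26 calls per library, had an adjusted p of 0.757 and overlapping libraries.

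The label of the tissue could be checked at the insulin genes alone. Of 16 beta cell markers, Ins1 and Ins2 had a kept window, and of the lists for other endocrine, acinar, duct, lymphocyte, macrophage, endothelial and stromal, and Schwann cells no gene had any. The part of other cell types in these levels was therefore not tested. The Ins1 window (chr19:52264001-52265000, 20 listed cytosines) stood at 41.2, 30.3, 26.4 and 15.9% on the standard diet and at 40.0, 42.4, 8.33 and 14% on the high-fat diet. The libraries of each diet spread over more than 20 points, and the interval of the difference ran from -32.84 to 26.51, so that this window settles little.

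Over the body of Ins2, which encodes the other insulin, methylation dropped to a low level in otherwise methylated surroundings. By the bounds of the gene in RefSeq, 2 windows hold it (chr7:142678001-142680000), and they averaged 22.6% ± 5.38 on the standard diet and 24.0% ± 6.28 on the high-fat diet. The libraries stood at 29.6, 22.7, 21.7 and 16.5% and at 19.1, 22.2, 33.2 and 21.4%, overlapping throughout. The gene model in the authors' table reaches far upstream, over 11 kept windows that averaged 71.4% ± 0.640 and 71.5% ± 1.38. The low stretch of 5 windows (chr7:142676001-142681000) averaged 24.9% ± 4.88 and 28.1% ± 4.40, whereas the 8 kept windows upstream of it (chr7:142681001-142693000) were at 88.0% ± 1.67 and 87.5% ± 1.18. Insulin genes are known to be unmethylated in beta cells and methylated in most other cells.

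The remainder of that locus covers imprinted genes, of which the maternal and the paternal copy differ in methylation. H19 makes a noncoding RNA from the maternal copy, Igf2 a growth factor from the paternal copy, and the region upstream of H19 is methylated on the paternal copy alone. Over the 3 windows upstream of H19 (chr7:142580001-142583000, 155 listed cytosines) methylation was 53.6% ± 1.88 on the standard diet and 54.8% ± 3.84 on the high-fat diet. The libraries stood at 56.0, 52.4, 51.8 and 54.1% and at 52.0, 55.0, 60.2 and 52.1%, so the diets overlapped (difference 1.23 points, -4.05 to 8.35). The windows of the H19 start were at 53.8% ± 5.62 and 53.7% ± 5.03 for the one and 57.6% ± 7.43 and 59.3% ± 12.5 for the other.

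Igf2 has several starts in the RefSeq table, with levels far apart. The window of the most upstream start, with 2 CpG in its promoter, was at 80.05% ± 8.64 and 83.9% ± 6.25, and that of the next start at 17.8% ± 5.28 and 16.7% ± 3.29. The window of the start with 24 CpG was at 1.94% ± 1.48 and 1.84% ± 2.11, within a stretch of 3 windows (chr7:142658001-142661000) that averaged 2.90% ± 1.51 and 3.30% ± 1.05. Around Mir483, a microRNA gene inside Igf2, 2 windows were at intermediate levels, 46.6% ± 3.86 and 51.5% ± 5.31. A window between H19 and Igf2 (chr7:142610001-142611000) dipped to 18.5% ± 4.27 on the standard diet and 13.01% ± 2.59 on the high-fat diet (unadjusted p = 0.0353, adjusted 0.876). These stretches were picked after their values were seen, and no window among them had separate libraries.

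**Figure D5:**
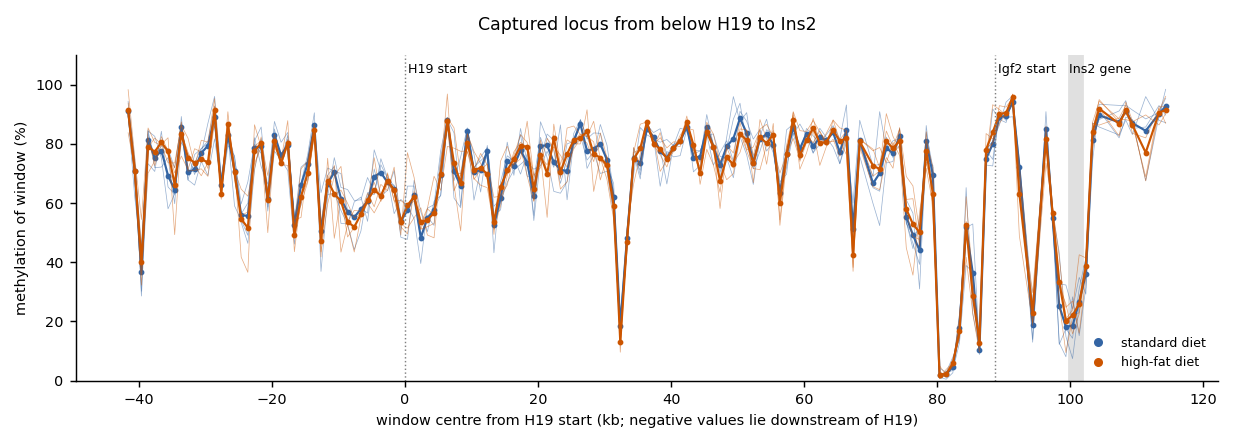
Methylation of the 150 kept windows of the locus (y axis, %) against the distance of the window's centre from the H19 start (x axis, kb); thin lines are libraries, thick lines with points the diet means (n = 4), dotted lines mark the starts of H19 and Igf2, and the grey band the 2 windows of the Ins2 gene in RefSeq. Levels near 54% upstream of H19, near 3% within Igf2 and near 23% over Ins2 recur on either diet.

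Outside the loci, 6 windows on chromosome 17 (chr17:39843001-39849000) overlap Rn18s-rs5, Gm26917 and Yam1, which are annotated over copies of ribosomal RNA sequence. Reads from the many ribosomal gene copies can pile up there, so these values are uncertain as to their place in the genome. The stretch averaged 4.20% ± 1.92 on the standard diet and 6.80% ± 0.721 on the high-fat diet, with libraries at 5.14, 3.68, 1.79 and 6.21% and at 7.62, 7.14, 5.99 and 6.47%. The window with the smallest p among them (chr17:39846001-39847000) stood at 3.0, 5.9, 0.0 and 1.7% and at 11.0, 15.9, 7.8 and 8.8% (unadjusted p = 0.00147, adjusted 0.528). Its high-fat libraries were all above its standard-diet libraries. The deepest window of all lay in satellite sequence at Gm10800 on chromosome 2, with at least 3341 calls per library, and its p was 0.117 before adjustment.

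Whether the diet difference of the young differed from that of mice put on the diets at 52 weeks of age was tested as an interaction in 1020 windows with at least 20 calls in all 15 libraries, 4 of old mice on the standard diet and 3 on the high-fat diet. No window passed (0 of 1020, 0.00%), and 46 had an unadjusted p under 0.05 (4.51%). The window inside Dlgap1 had the smallest p, 0.00017 before and 0.173 after adjustment, since it was 22.2 points higher on the high-fat diet in the young and lower on it in the old. Without old standard-diet replicate 4 that window passed (adjusted p = 0.00176), and without old high-fat replicate 2 another window passed.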

How the data were processed

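Genomic DNA of islets was measured at CpG positions of selected regions. Per the submitters' processing notes, Trimmomatic, BSMAP and bedtools were used and the build was mm10; their order and settings are not given in the sources used here. For each cytosine the deposited tables list the coverage (counts of reads) and the percent that read C or T. The authors' deposited gene table for young islets gives raw counts per gene, and their DESeq2 table gives log2 fold changes with standard errors and p-values. Groups follow the age and diet in the labels.

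Methylated calls (coverage times percent C) and coverage were summed over both strands in windows of 1000 bp, with a minimum of 20 calls in every library compared. Gene positions come from the authors' gene table, except the Ins2 stretch, the printed promoters and the further starts of Igf2 and Cdkn1a, which come from RefSeq. A captured locus is a run of at least 10 kept windows whose starts are at most 5 windows apart and which fills at least 66.7% of its span. The window model was fitted in R 4.3.3 with dispersions moderated by limma 3.58.1 and held at 1 or above. It was tested on simulated calls with large planted shifts, which does not show whether shifts as small as most seen here would be called. edgeR 4.0.16 and limma on log2 ratios were alternatives, as were other call minimums, window sizes and offsets, a limit of 20 calls per cytosine, pooled calls, a replicate block and leaving out each library. Class means were compared by exact permutation tests over libraries (Python 3.11.15, scipy 1.17.1). CPM values are counts scaled to the total of the library in the gene table. Incomplete conversion is bounded by chromosome M, where 3 of 777 calls of the young libraries were methylated (0.386%, exact 95% interval 0.0797 to 1.12, counting error only); all 3 were among the 100 calls of high-fat replicate 4, and the other libraries had 0. Between libraries the counts differed by more than sampling noise, so none was merged.

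Windows named are the 6 higher and 6 lower with the smallest p, windows at starts of listed genes with the most reads (up to 4 a list), and any window over Myc, Mki67, Ccnd2, Cdkn2a, Cdkn1a, Ins1, Ins2, Gcg, Pdx1, Mafa or Ctrb1. No kept window overlapped Myc, Cdkn2a, Gcg, Pdx1, Mafa or Ctrb1. Of the fixed lists, imprinted genes had 1 member with a start window (H19), the cell cycle list 8, the beta cell list 1, and the DNA methylation list 0. The windows, gene lists and loci were chosen with earlier results of these data known; the genes singled out for prints, stretches and gene-start profiles were chosen after their values were seen. Results for a few windows and gene starts are not reported here.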

Additional observations from a re-analysis of the deposited data

Results flagged for a closer look

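Of 78 groups of 4 libraries (each class and locus on each diet), 3 held a library whose distance to the nearest other was too large a share of the group's range (Dixon's 95% critical value). Chance gives about 1 in 20 such groups. In gene-start windows, 1 standard-diet library stood at 38.57%, below the others at 38.74 to 38.77%, in a group whose whole range is small. In the Mki67 locus, 1 standard-diet library stood at 82.04%, with the others at 82.97 to 83.16%. In the Ccnb2 locus, 1 standard-diet library stood at 79.78%, with the others at 81.62 to 81.80%.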

How the results depend on the processing

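With all libraries, the count of called windows was 0 in the test given above and under 9 alternatives, with 44 to 79 windows at an unadjusted p under 0.05 and smallest adjusted p-values of 0.091 to 0.986. The age interaction likewise gave 0 under 3 alternatives (34 to 52 unadjusted). With 1 library left out at a time, both tests gave 0 to 1 called windows. The replicate block (replicate number as a term) called 0 windows for the diet, 59 unadjusted, and 0 for the interaction, 45 unadjusted. The labels tie the numbers to nothing shared, and over 1070 windows the deviations of same-numbered libraries correlated at 0.0173, 0.0548, 0.0116 and -0.00503, with 1 of 4 numbers best matched to itself.

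Of 161 recomputed class differences, 144 kept their direction and 17 reversed, and the cause of the reversals was not tested. The threshold was passed by 0, but a single class could not pass these exact tests after adjustment. Under the replicate block, whose test flips the signs of the differences between same-numbered libraries, no class could pass. Windows over 80% methylated (-0.032 points) gave 0.0407 with 50 calls, 0.0993 with windows shifted by 500 bp, 0.186 with calls pooled and, in alternatives chosen after seeing the data, 0.0557 in the 29 loci alone and 0.161 there with calls pooled. Pooling calls also gave -2.16 for gene-start windows, -0.00996 for windows of 20 to 80% and -0.272 for those with 20 to 59 cytosines. Pooled gene-start windows of the loci alone gave 0.676. With 1 library left out at a time, the range was -0.000485 to 0.371 in gene bodies, -0.0781 to 0.164 in intergenic windows, -0.161 to 0.191 in windows over 80%, and -0.0255 to 0.255 in windows with fewer than 20 cytosines. The Cdk1 locus kept a difference of 0.519 to 0.728, and all 12 windows named by their p kept their direction.

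The precision of single windows varied with their level, with a median SE of 0.994 points under 20% methylated, 3.74 points from 20 to 80% and 2.32 points above 80%. With equal weight per window, the exact intervals of the class differences reached no further than -0.88 and 1.46 points. The pooled gene-start value of -2.16 lies beyond all of them. The pooled value of all windows in the loci, 0.899, lies above the interval of the class of all windows (-0.40 to 0.81).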
